A study of Danio rerio with 16 samples.

Results

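In juvenile zebrafish gonads, 60 genes had read levels that kept every miR-214 KO library on one side of every HET library, over both of 2 reciprocal crosses. The set was chosen from these libraries: each gene's count was divided by its library total, in M (mega) counts, to give CPM, genes with a mean of 1 to 500 CPM over the 16 libraries were kept, and each gene was ranked by its gap. The gap is the distance, on the log2(CPM + 0.5) scale, between the lowest library of the higher genotype and the highest library of the lower genotype. Of 31953 genes in the table, 17641 had a mean in that range, and the 60 with the largest gap were taken. These were also all the genes whose gap was above 0, which is 0.34% of the range. Of the 60, 53 were higher in KO (0.3% of the range) and 7 were lower (0.0397%). Since these libraries chose the genes, the KO and HET values below describe the set and are not tested.

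The KO fish were homozygous for a miR-214 mutation made with CRISPR-Cas9 and 2 sgRNAs, bred beyond the F3 generation, and the HET fish were heterozygous for it. In the maternal cross a homozygous mother was paired with a heterozygous father, and in the paternal cross a heterozygous mother was paired with a homozygous father, so each cross gives KO and HET siblings. KO and HET of the maternal cross and KO and HET of the paternal cross had 4 libraries each, and a library pooled 7 to 9 gonads. In the maternal cross a KO library pooled 8 or 9 gonads and every HET library 7. Pool size and genotype therefore cannot be told apart in that cross. In the paternal cross a KO library pooled 8 or 9 gonads and every HET library 9. Every fish, KO and HET alike, came from a line with the transgene Tg(vasa:eGFP), a green fluorescent reporter under the promoter of the germ-cell gene vasa. Genotypes without any mutant allele were not analysed here, and within a cross the siblings share 1 homozygous parent. For age, the titles say 31 days post fertilization and the sample characteristics 27, for all 16 libraries alike, and the sex of the fish in a pool is not given.

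MicroRNAs are short RNAs that pair through their seed with messenger RNAs, mostly in the 3′ UTR, and lower their stability or translation. In zebrafish embryos, miR-214 is known for lowering sufu, an inhibitor of Hedgehog signalling, in the muscle lineage. A juvenile zebrafish gonad passes through an oocyte-bearing juvenile phase, after which oocytes are kept in ovaries and lost in testes. In gonad pools, fewer cells of a type and less RNA per cell cannot be told apart.

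Library totals were 19.9 to 30.1 M (mega) counts, so 3 counts, taken as the floor of detection, correspond to 0.0996 to 0.151 CPM. The 4 paternal-cross HET libraries, at 26.4 to 30.1 M, were deeper than every other library, of which the deepest had 24.6 M. Depth and genotype therefore went together in the paternal cross. The smallest count of any of the 60 genes in any library was 12. Markers of the labelled tissue were present: the summed level of 8 germ-cell markers was 3444 to 4017 CPM in KO libraries and 3102 to 3878 CPM in HET libraries. The targeted RNA itself cannot be read here, because polyadenylated RNA does not measure a mature microRNA. The annotated hairpin gene MIR214 had 0 to 7 counts in KO libraries and 0 to 9 counts in HET libraries, so its counts check no label.

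The gene with the widest gap was nfil3-5, a member of the Nfil3 family of basic leucine zipper transcription factors. Its level was 31.5, 18.6, 26.3 and 38.7 CPM in maternal-cross KO libraries, against 6.28, 10.7, 14.5 and 7.06 CPM in maternal-cross HET libraries. In the paternal cross it was 23.0, 19.2, 20.4 and 27.6 CPM in KO libraries, against 7.13, 3.99, 3.58 and 5.62 CPM in HET libraries. The lowest KO library and the highest HET library were both from the maternal cross, and the means stood 3.49-fold apart. The gap was 0.35 on the log2 scale.

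The second-ranked gene, ENSDARG00000043237, has no symbol in the name tables. Its level was 10.9, 6.86, 8.5 and 11.8 CPM in maternal-cross KO libraries, against 2.15, 2.21, 3.98 and 1.86 CPM in maternal-cross HET libraries. In the paternal cross it was 6.02, 5.05, 5.72 and 7.99 CPM in KO libraries, against 1.4, 1.63, 0.664 and 1.56 CPM in HET libraries. Its ratio of means, 4.06-fold, was the largest among the 60, and its gap was 0.31.

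Further regulators of transcription stood among the 10 widest gaps on the KO-higher side. The Polycomb subunit gene cbx7a reads the histone mark of silenced chromatin; it ran from 9.99 to 37.0 CPM in KO libraries (median 14.0), against 3.86 to 8.42 CPM in HET libraries (median 5.24). The highest value was in maternal-cross KO replicate 4, and the next highest KO library had 18.6 CPM. The histone acetyltransferase gene KAT2B ran from 2.86 to 4.45 CPM in KO libraries (median 3.19), against 1.52 to 2.60 CPM in HET libraries (median 2.06). Its KO libraries lay close together apart from 1 paternal-cross library at the top.

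Signalling and turnover genes among the widest gaps differed by less. CCM2, which encodes a scaffold protein known for keeping blood vessels intact, had 19.6, 19.8, 17.9 and 19.0 CPM in maternal-cross KO libraries, against 14.6, 14.6, 14.4 and 12.6 CPM in maternal-cross HET libraries. In the paternal cross CCM2 had 18.1, 18.8, 22.7 and 21.1 CPM in KO libraries, against 12.8, 14.7, 15.0 and 13.2 CPM in HET libraries. The spread within each group was narrow, so a ratio of means of 1.4-fold gave a gap of 0.25. RALGPS2, an exchange factor for Ral GTPases, ran from 37.8 to 50.9 CPM in KO libraries (median 41.1), against 23.2 to 33.8 CPM in HET libraries (median 29.8). MIDN, which encodes midnolin, a carrier of nuclear proteins to the proteasome, ran from 26 to 38.8 CPM in KO libraries (median 29.5), against 18.8 to 23.9 CPM in HET libraries (median 21.2). IGF1R, an insulin-like growth factor receptor gene, ran from 36.1 to 42.9 CPM in KO libraries (median 37.9), against 28.4 to 33.3 CPM in HET libraries (median 32.0). In each of these 3 genes the groups were set apart by less than the range of the KO libraries. The other KO-higher genes among the 10 widest gaps, ENSDARG00000091623 and si:ch211-196h24.1, had ratios of means of 1.37-fold and 1.98-fold.

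**Figure D1:**
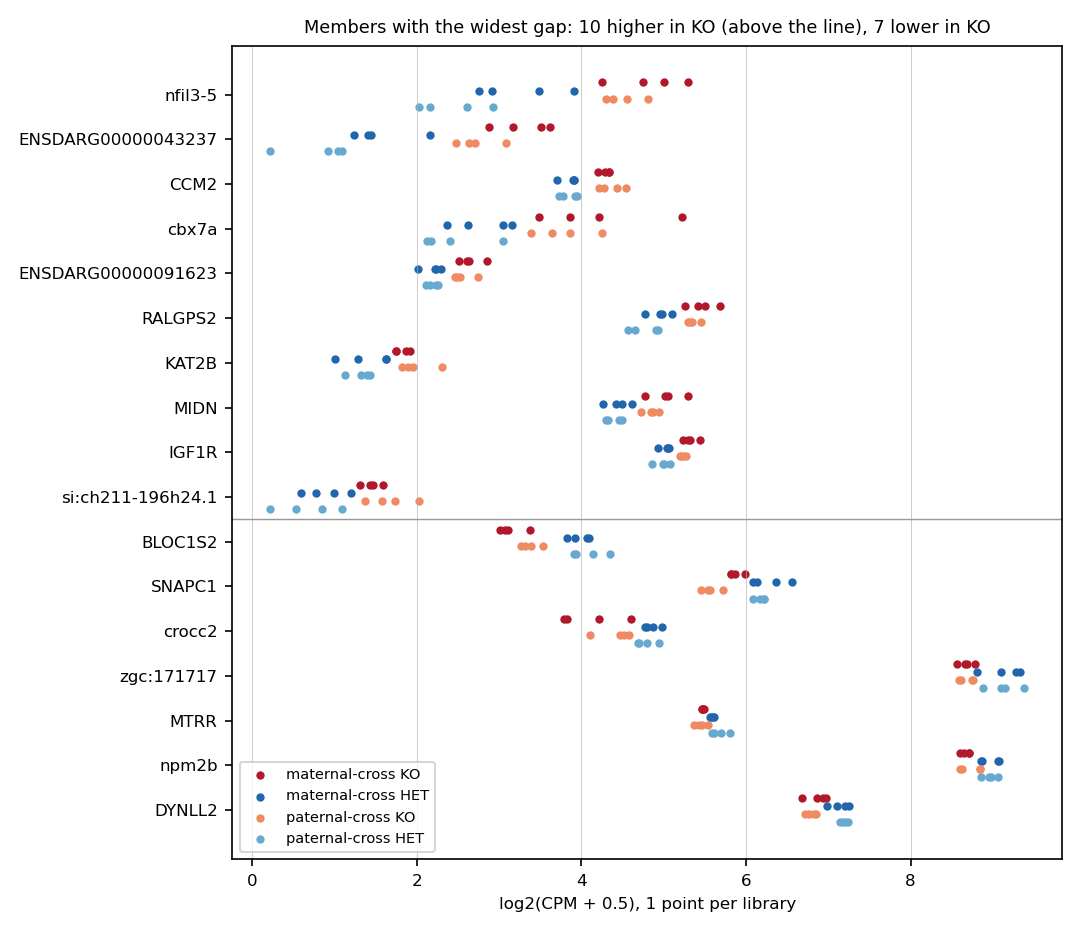
Level of 17 of the 60 genes, as log2(CPM + 0.5), in each of the 16 libraries: the 10 KO-higher genes with the widest gap above the line and all 7 KO-lower genes below it. Each point is 1 library, with KO and HET of each cross on their own rows; nfil3-5, ENSDARG00000043237 and cbx7a are set widest apart, while npm2b and DYNLL2 almost touch.

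On the KO-lower side, BLOC1S2 led by far. It encodes a subunit shared by complexes that place lysosomes and lysosome-related organelles. BLOC1S2 had 9.87, 7.55, 7.90 and 8.11 CPM in maternal-cross KO libraries, against 16.3, 14.7, 13.7 and 16.6 CPM in maternal-cross HET libraries. In the paternal cross it had 9.97, 11.1, 9.50 and 9.15 CPM in KO libraries, against 17.2, 14.5, 14.8 and 19.9 CPM in HET libraries. KO libraries held 0.573 of the HET mean, the lowest ratio of the 60. The highest KO library had 11.1 CPM and the lowest HET library 13.7 CPM.

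The other 6 KO-lower genes had smaller gaps. SNAPC1, a subunit of the complex that starts transcription of small nuclear RNAs, ran from 43.3 to 63.2 CPM in KO libraries (median 54.1), against 67.4 to 94.0 CPM in HET libraries (median 72.7). Crocc2, a member of the rootletin family of ciliary rootlet proteins, ran from 13.3 to 23.7 CPM in KO libraries (median 19.9), against 25.2 to 31.0 CPM in HET libraries (median 27.3). The range of crocc2 in KO libraries was wider than its range in HET libraries. The nucleoplasmin gene npm2b, a histone chaperone of oocytes, ran from 387 to 460 CPM in KO libraries (median 410), against 463 to 538 CPM in HET libraries (median 499.7). Here the highest KO and lowest HET libraries were almost level, with a gap of 0.01. MTRR (methionine synthase reductase), zgc:171717 and DYNLL2 (a dynein light chain) had ratios of 0.888, 0.723 and 0.792 of the HET mean.

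Oocyte markers moved with genotype in the average over crosses. Over 7 oocyte markers, the summed level was 6848 to 8322 CPM in KO libraries and 8013 to 9393 CPM in HET libraries, and 5 of the 7 fell in KO averaged over crosses in edgeR's quasi-likelihood test, against 4.04% of all tested genes that were called lower. The median log2 fold change of the 7 was -0.27, against 0.01 over all genes tested. Within crosses, 0 of the 7 were called in the maternal cross (median -0.15), where 0.198% of all genes were called in either direction. In the paternal cross 6 fell (median -0.35), where 23.2% of all genes were called in either direction. The defining markers of the egg envelope, zp3b and zp2.1, were among the 5, with log2 fold changes of -0.27 and -0.35 (adjusted p = 0.033 and 0.0231). The part of the oocyte markers in the KO-lower genes was not tested.

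Most of the 60 differences were small. The KO-higher genes had ratios of means of 1.11-fold to 4.06-fold with a median of 1.39-fold, and the KO-lower genes had 0.573 to 0.888 of the HET mean with a median of 0.723. In 4 genes the ratio of means was at least 2-fold: ENSDARG00000043237, nfil3-5, cbx7a and FBN3, a fibrillin gene of the extracellular matrix, at 2.04-fold. In 7 genes it was under 1.2-fold in either direction. What the rule rewarded was a narrow spread as well as a wide difference. The median within-group SD of the 60, on the log2 scale, was 0.158, against 0.199 over all genes in the range, and 41 of the 60 lay under that median of all genes.

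Among the remaining KO-higher genes were other regulators of transcription. The gene wt1b, a zinc-finger gene of the Wilms tumour family, ran from 12 to 21.7 CPM in KO libraries (median 15.3), against 5.97 to 11.6 CPM in HET libraries (median 7.41). BACH2, EGR3, bcl6ab, bcorl1, zfpm2b (a GATA cofactor of the FOG family) and HBP1 (an HMG-box repressor) had ratios of 1.75-fold, 1.63-fold, 1.24-fold, 1.2-fold, 1.51-fold and 1.56-fold in that order. Kinase and receptor genes included MAP3K20 at 1.99-fold, NUAK2 at 1.67-fold and robo4, a roundabout receptor of the endothelium, at 1.83-fold, and the mechanosensitive channel gene PIEZO2 stood at 1.72-fold. This grouping by known role was made after the values were seen and carries no test.

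The limit of the set fell among nearly equal genes. The last 3 genes inside were PSMC6, a proteasome ATPase, YTHDC1, a nuclear reader of methylated adenosine, and robo4, with gaps of 0.00363, 0.00322 and 0.00128. The first 3 outside were TRAPPC8, ENSDARG00000087950 and mcm3ap, with gaps of -0.000118, -0.000374 and -0.00152, so their groups overlapped by a sliver. PSMC6 had 147 to 162 CPM in KO libraries (median 149.7) and 126 to 147 CPM in HET libraries (median 136). TRAPPC8 had 50.3 to 54.8 CPM in KO libraries (median 51.8) and 44 to 50.4 CPM in HET libraries (median 48.4).

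Whether a gene belonged to the set depended on how libraries were scaled. On CPM of total counts, the median gene of the range was 0.11 higher in KO than in HET on the log2 scale, 0.08 in the maternal cross and 0.13 in the paternal cross. On CPM scaled by the trimmed mean of M values (TMM), which aligns libraries on the bulk of their genes, the same median was -0.03. The TMM factors were 0.982 to 1.13 in KO libraries and 0.858 to 1.07 in HET libraries. With TMM-scaled CPM, 23 of the 60 were chosen again, 20 of them higher in KO and 3 lower. On that scale 46 genes had a gap above 0, of which 29 were higher in KO, or 63.0%, against 88.3% on CPM of total counts.

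Nfil3-5, ENSDARG00000043237, BLOC1S2, cbx7a, RALGPS2, MIDN, KAT2B, si:ch211-196h24.1 and crocc2 kept a gap above 0 on both scales, and their TMM gaps ran from 0.02 for KAT2B to 0.41 for nfil3-5. CCM2, IGF1R and SNAPC1 did not, with TMM gaps of -0.04, -0.11 and -0.03, so at least 1 KO library lay within the HET range. Size factors of DESeq2 gave the same 23 genes. The direction of the mean stayed as chosen on the TMM scale in edgeR for every one of the 60 when averaged over crosses, and in the maternal cross alone it turned for PSMC6, at a log2 fold change of -0.02.

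**Figure D2:**
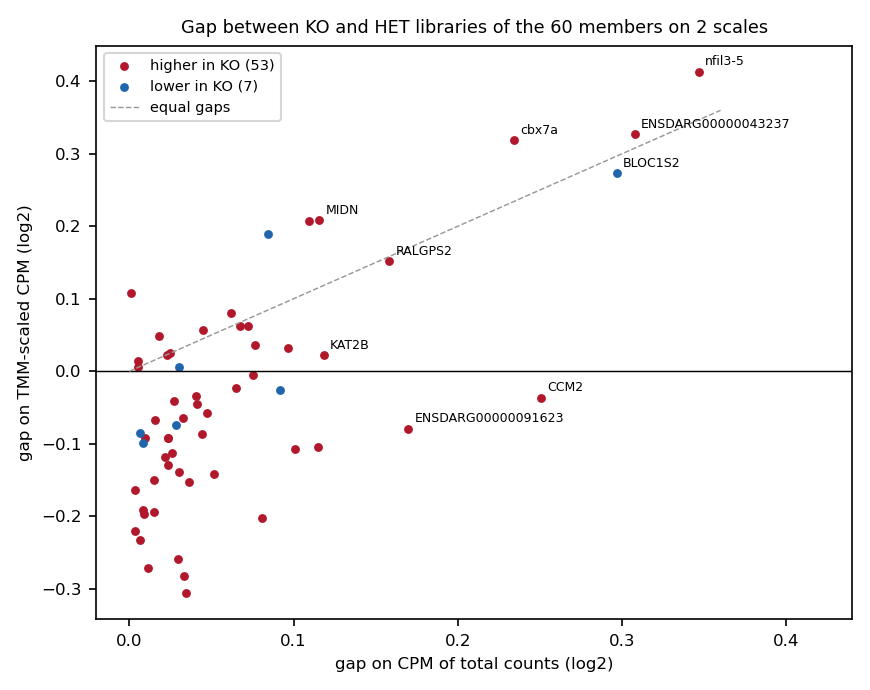
Gap between KO and HET libraries of each of the 60 genes on CPM of total counts (x axis) and on TMM-scaled CPM (y axis), both on the log2 scale. Points under the horizontal line, 38 of the 60, overlap between genotypes once libraries are TMM-scaled, CCM2 and ENSDARG00000091623 among them.

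Single libraries also decided much of the membership. When the choice was repeated without maternal-cross HET replicate 3, only 12 of the 60 were chosen again and 312 genes had a gap above 0. For each of the 60 genes chosen without it, the midpoint between the KO and HET log2 means of the remaining libraries was taken. Maternal-cross HET replicate 3 lay on the HET side of that midpoint for 7. Without maternal-cross KO replicate 2, 25 were chosen again. That library lay on the KO side of the midpoint for 23 of the genes chosen without it. Leaving out paternal-cross KO replicate 3 or paternal-cross HET replicate 1 kept 36 and 38 genes. Each of the other 12 libraries could be left out with 49 to 57 of the 60 chosen again. Leaving out a library cannot narrow a gap. All 60 had a gap above 0 without maternal-cross HET replicate 3, and at least 59 had one in every repeat. Genes of the set that had a gap above 0 but were not chosen again were outranked by genes with wider gaps.

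Marker levels are given for the 2 libraries whose absence changed the membership most, and for maternal-cross KO replicate 4. The 5 somatic gonad markers, gsdf and amh among them, summed to 498 CPM in maternal-cross HET replicate 3 and to 173 to 256 CPM in the other maternal-cross HET libraries. The 5 leukocyte markers summed to 545 CPM there, against 188 to 313 CPM in those others. In this library 7 oocyte markers summed to 8013 CPM, against 8629 to 8727 CPM in the other maternal-cross HET libraries. Of the maternal-cross HET libraries this one was also highest in markers of 3 other tissues, but not in those of liver or of gut and pancreas. There 2 muscle markers summed to 424 CPM against 42.4 to 203 CPM, 3 erythrocyte markers to 206 CPM against 25.7 to 74.8 CPM, and 3 kidney markers to 94.6 CPM against 10.9 to 24 CPM. In maternal-cross KO replicate 2 the somatic gonad markers summed to 207 CPM, the lowest of the KO libraries, with 243 CPM in the next lowest. In maternal-cross KO replicate 4, 5 gut and pancreas markers summed to 2883 CPM and 5 liver markers to 154 CPM. The next highest library, maternal-cross KO replicate 3, had 587 CPM and 31.8 CPM. All 4 genes with a ratio of at least 2-fold were highest in maternal-cross KO replicate 4. There nfil3-5, ENSDARG00000043237, cbx7a and FBN3 had 38.7, 11.8, 37.0 and 39.6 CPM. Without that library 52 of the 60 were chosen again. The part of these cell types and tissues in the membership was not tested. Over the repeats, 10 genes were chosen in all 16 repeats: nfil3-5, ENSDARG00000043237, BLOC1S2, CCM2, cbx7a, ENSDARG00000091623, RALGPS2, MIDN, si:ch211-196h24.1 and DDHD1, a phospholipase gene.

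**Figure D3:**
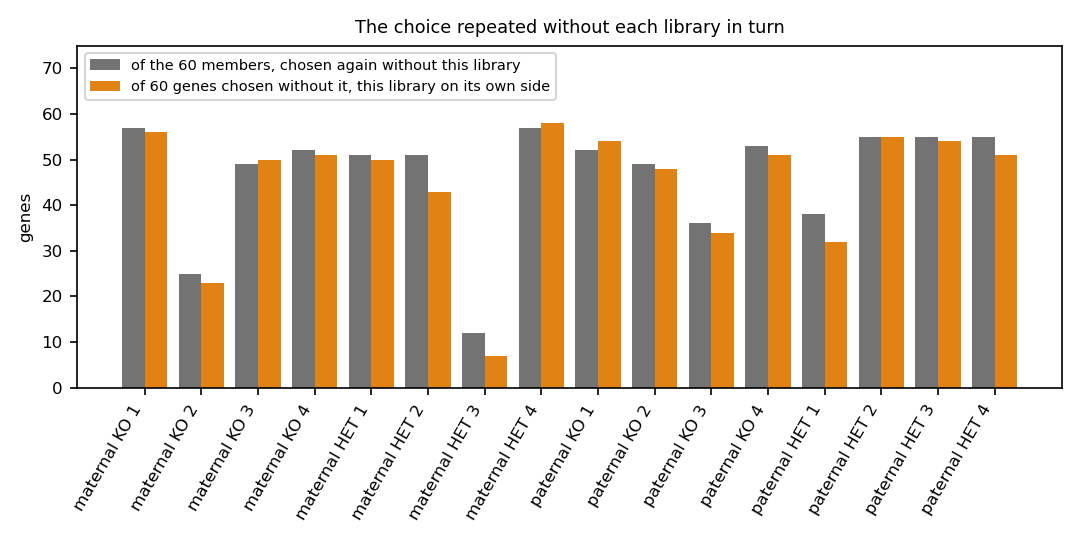
For each of the 16 libraries, the number of the 60 genes that were chosen again without it (grey) and the number of 60 genes chosen without it for which the library then lay on the side of its own genotype (orange). Sides are taken from the midpoint between the KO and HET log2 means of the remaining libraries. A gene not chosen again need not have lost its gap. Maternal-cross HET replicate 3 stands lowest on both, at 12 and 7.

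Reading the genes with edgeR's quasi-likelihood test over all 21683 genes that passed a filter on low counts gave calls at an adjusted p-value of 0.05 that used the same contrasts as the choice. All 60 passed the filter. Averaged over crosses, 48 of the 60 were called in KO against HET, beside 12.2% of all genes tested. In the maternal cross 8 of the 60 were called, beside 0.198%, and in the paternal cross 30 were called, beside 23.2%. These counts follow from the choice, and nothing is read from them. The 8 called in the maternal cross were nfil3-5, ENSDARG00000043237, BLOC1S2, RALGPS2, MIDN, HBP1, NUAK2 and CENPF, a kinetochore gene.

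The sizes of the differences in the crosses can be set side by side. The median absolute KO minus HET difference of the 60 was 0.43 in the maternal cross and 0.42 in the paternal cross on the log2(CPM + 0.5) scale. The choice required each of the 60 to differ in both crosses, so the likeness of these medians is partly set by it. Over all genes in the range the medians were 0.12 in the maternal cross and 0.21 in the paternal cross. For nfil3-5, edgeR's log2 fold change of KO against HET was 1.5 (SE 0.23) in the maternal cross and 2.01 (SE 0.24) in the paternal cross. For BLOC1S2 it was -0.97 (SE 0.12) in the maternal cross and -0.89 (SE 0.12) in the paternal cross. For cbx7a it was 1.5 (SE 0.31) and for RALGPS2 0.43 (SE 0.08) in the maternal cross, against 1.27 (SE 0.31) and 0.44 (SE 0.08) in the paternal cross.

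**Figure D4:**
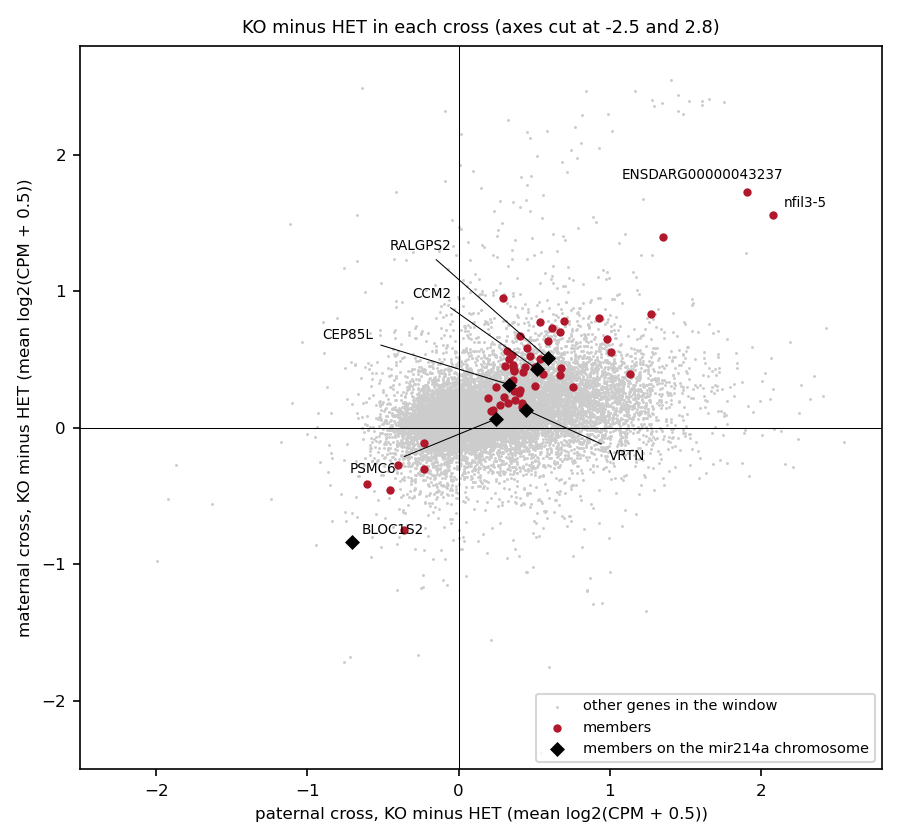
Difference of KO minus HET means of log2(CPM + 0.5) in the paternal cross (x axis) and the maternal cross (y axis) for the 60 genes (red, with the 6 on the chromosome of mir214a in black) and the other genes in the range (grey). All 60 lie at the lower left or upper right of the axes' crossing, which their choice fixes; 4 other genes lie outside the axes.

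The choice did not use the difference between crosses in the genotype effect, although a wide gap leaves less room for it. None of the 60 was called in the interaction (the genotype difference of the maternal cross less that of the paternal cross) by edgeR's quasi-likelihood test, beside 0.189% of all genes tested. At an unadjusted p under 0.05 there were 4 of the 60, which were HBP1, robo4, CENPF and DDHD1, and 3978 of all genes, or 18.3%. HBP1 had 15.2, 9.74, 15.2 and 13.0 CPM in maternal-cross KO libraries, against 4.83, 7.84, 7.39 and 6.46 CPM in maternal-cross HET libraries. In the paternal cross HBP1 had 11.5, 11.3, 9.75 and 12.4 CPM in KO libraries, against 9.48, 7.95, 9.53 and 9.21 CPM in HET libraries, so the groups stood closer there. Its interaction log2 fold change was 0.76 (SE 0.19), with an edgeR adjusted p of 0.0932. The DESeq2 Wald test called 1 of the 60, HBP1, at an adjusted p of 0.00831.

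Between the crosses, averaged over genotypes, 2 of the 60 were called, beside 5.76% of all genes tested that were called in either direction. Both were higher in the maternal than in the paternal cross. Nfil3-5 averaged 28.8 ± 8.46 CPM in maternal-cross KO and 22.6 ± 3.70 CPM in paternal-cross KO libraries (SD, n = 4 each). It averaged 9.65 ± 3.79 CPM in maternal-cross HET and 5.08 ± 1.62 CPM in paternal-cross HET libraries (SD, n = 4 each). The log2 fold change was 0.61 (SE 0.17), with an edgeR adjusted p of 0.0413. That call was lost in 11 of the 16 fits that left out 1 library. For ENSDARG00000043237 the log2 fold change was 0.76 (SE 0.18), with an edgeR adjusted p of 0.0237, and its call was lost only without paternal-cross KO replicate 2.

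A reading in libraries that the choice did not use was made by choosing 60 genes in 1 cross alone and looking at them in the other cross. Direction and overlap were read from the other cross alone. The edgeR calls came from the fit of all 16 libraries. Its scaling and spread were estimated partly from the libraries that made the choice, so these calls are not independent of it. Of 42 genes chosen as higher in KO in the maternal cross, 35 were also higher in KO in the paternal cross on the CPM scale, or 83.3%, where 67.2% of all genes in the range were. That scale sets the median gene 0.13 higher in KO in the paternal cross. For ADAMTS1, amotl2b and EFNA1, among others, mean CPM was higher in paternal-cross KO libraries. Their log2 fold changes in edgeR, which uses TMM, were negative there (-0.04, -0.06 and -0.07). KO and HET libraries of the paternal cross did not overlap for 9 of the 42, or 21.4%, beside 22.1% of all genes, which is a share near the background. The edgeR test called 6 of the 42 as higher in the paternal cross, beside 14.9% of all genes. CYP24A1 and KLF9, also of the 42, were called as lower there (edgeR, adjusted p = 0.032 and 0.0054). Of the 18 genes chosen as lower in KO in the maternal cross, 12 were lower in the paternal cross, where 32.8% of all genes were, and 4 were called as lower, beside 10.5%. VEGFC and NPY2R, also of the 18, were called as higher there (edgeR, adjusted p = 0.00585 and 0.0395). For 1 of these 18, or 5.56%, the KO and HET libraries of the paternal cross did not overlap, beside 3.25%.

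The reverse reading gave fewer. Of 59 genes chosen as higher in KO in the paternal cross, 39 were higher in the maternal cross, or 66.1%, beside 73.8% of all genes, and 3 did not overlap there, beside 4.36%. Of the 59, 2 were called in the maternal cross, beside 0.176%. They were nfil3-5, at 1.5 on the log2 scale with SE 0.23 (edgeR, adjusted p = 0.00953), and ENSDARG00000043237, at 1.81 with SE 0.25 (edgeR, adjusted p = 0.00436). Neither was called in an edgeR fit of the maternal cross alone. The third gene without overlap was TGFBR2, a receptor gene for transforming growth factor beta, which averaged 10.8 CPM in maternal-cross KO and 4.35 CPM in maternal-cross HET libraries and was not called (adjusted p = 0.0571). Nfil3-5 and ENSDARG00000043237 were also the only 2 genes that both choices held. The choice in the maternal cross held 7 of the 60 genes of this set, and the choice in the paternal cross held 2.

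Position was not used by the choice. Chromosome and gene order, but no coordinates, were taken by symbol from the RefSeq gene table of the GRCz12tu assembly, since the counts were made on another build. In this way 41 of the 60 genes could be placed. In that table mir214a lies inside dnm3a, a dynamin gene. Of the 41, 6, or 14.6%, lay on the chromosome that carries mir214a, where 501 of 12121 placed genes of the range, or 4.13%, lay. As a share of the genes there, 1.2% of the 501 were in the set, against 0.301% of the 11620 placed genes on other chromosomes. No other chromosome held more than 3, and no 2 of the 41 were within 5 genes of each other.

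The 6 genes were BLOC1S2, CCM2, RALGPS2, CEP85L, VRTN and PSMC6. Counted in protein-coding genes from dnm3a, with negative numbers before it in the table, BLOC1S2 lay at -79, PSMC6 at -54, RALGPS2 at 18, CCM2 at 51, VRTN at 230 and CEP85L at 539. Within 100 genes of dnm3a, a limit chosen after the positions were seen, 4 of 99 genes of the range were in the set, or 4.04%. CEP85L, a centrosomal protein gene, ran from 17.1 to 20 CPM in KO libraries (median 18.7), against 12.4 to 16.1 CPM in HET libraries (median 15.1). VRTN, which encodes vertnin, known in pigs for its link to vertebral number, ran from 21.7 to 35.8 CPM in KO libraries (median 23.2), against 18.2 to 21.5 CPM in HET libraries (median 19.8). On CPM of total counts, 5 of the 6 were higher in KO, by 1.11-fold to 1.47-fold, and BLOC1S2 was lower. On TMM-scaled CPM, CCM2, CEP85L, VRTN and PSMC6 had gaps under 0, at -0.04, -0.20, -0.19 and -0.22. All 6 were placed by a symbol that matched only when letter case was ignored. With matches of the same case alone, 16 of the 60 were placed and 0 lay on that chromosome, where 3.34% of the genes placed in this way lay.

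**Figure D5:**
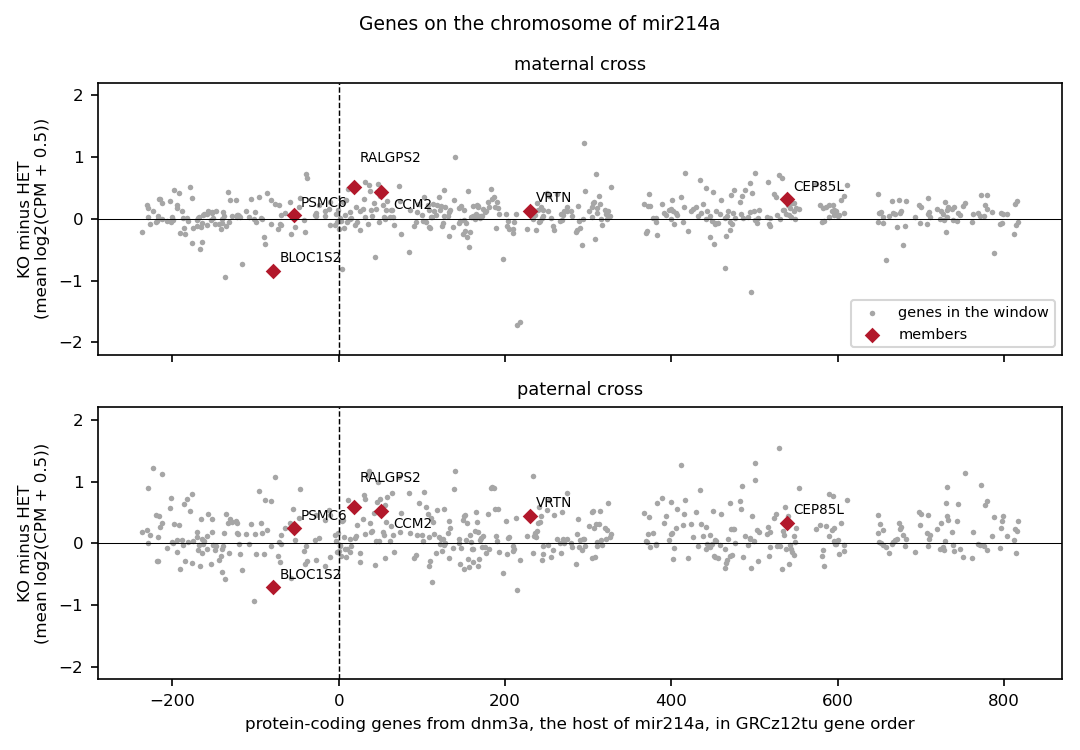
Difference of KO minus HET means of log2(CPM + 0.5) for the genes of the range on the chromosome of mir214a, in GRCz12tu gene order counted from dnm3a (dashed line), in the maternal cross (top) and the paternal cross (bottom). The 6 genes of the set are diamonds, with BLOC1S2 below 0 and the other 5 above it in both crosses.

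The choice made in the maternal cross alone used part of the same libraries, so it is no separate observation of this chromosome. Of its 31 placed genes, 6 lay on the mir214a chromosome, beside 4.13% of the placed genes of the range. They were BLOC1S2 and CCM2, both in the set, RWDD2B, PPP4R4 (a regulatory subunit of protein phosphatase 4), msraa (a methionine sulfoxide reductase) and selenol (a selenoprotein). In the paternal cross, whose libraries that choice did not use, all 6 had the same direction. There 4 were called by edgeR's quasi-likelihood test, in the fit of all 16 libraries, which include those that made the choice. In that comparison 24.8% of the 501 genes on the chromosome and 26.1% of the 11620 elsewhere were called in either direction. By direction, 14.9% of all genes in the range were called as higher in KO and 10.5% as lower. On the CPM scale, 67.2% of all genes in the range were higher in KO there and 32.8% lower. Of the 6, CCM2 was higher and the others were lower. KO and HET libraries of the paternal cross did not overlap for BLOC1S2 and CCM2, but overlapped for RWDD2B, PPP4R4, msraa and selenol. Over the range, 22.1% of genes did not overlap there as higher in KO and 3.25% as lower. BLOC1S2 averaged 9.92 CPM in paternal-cross KO and 16.6 CPM in paternal-cross HET libraries (adjusted p = 0.00337), and CCM2 averaged 20.2 CPM in paternal-cross KO and 13.9 CPM in paternal-cross HET libraries (adjusted p = 0.0235). RWDD2B averaged 17.1 CPM in paternal-cross KO and 25.0 CPM in paternal-cross HET libraries (adjusted p = 0.0129), and PPP4R4 averaged 13.5 CPM in paternal-cross KO and 21.4 CPM in paternal-cross HET libraries (adjusted p = 0.0210). Msraa and selenol missed the threshold (adjusted p = 0.101 and 0.0848). Of the 36 placed genes chosen in the paternal cross, 0 lay on that chromosome. On TMM-scaled CPM of the same 16 libraries, 6 of the 37 placed genes chosen over both crosses lay there. They were BLOC1S2, RALGPS2 and 4 genes outside the set (cyp46a1.2, SIRT5, PTRHD1 and WTAP). RALGPS2 and WTAP were higher in KO, and BLOC1S2, cyp46a1.2, SIRT5 and PTRHD1 were lower.

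By the design, KO siblings carry DNA of the mutant line around mir214a on both chromosome copies and HET siblings on 1, so loss of miR-214 and DNA linked to the mutation cannot be told apart for these genes. The host gene dnm3a was not called: it ran from 12.8 to 22 CPM in KO libraries and from 14.9 to 20.2 CPM in HET libraries, and averaged over crosses it had a log2 fold change of -0.27 with SE 0.10 (adjusted p = 0.0808 by edgeR).

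None of the 60 belonged to the Hedgehog list, the gonad sex gene list or the cell type marker lists, as far as names matched: 12 of 19 Hedgehog genes, 12 of 22 gonad sex genes and 5 of 9 somatic gonad markers were found by name, and 3 of the 60 have no symbol. The series title names gsdf, a growth factor of the somatic gonad. It averaged 222 CPM in maternal-cross KO and 212 CPM in maternal-cross HET libraries, and 348 CPM in paternal-cross KO and 145 CPM in paternal-cross HET libraries. In edgeR its log2 fold change was -0.01 with SE 0.26 in the maternal cross (adjusted p = 0.998) and 1.11 with SE 0.26 in the paternal cross (adjusted p = 0.0125), and the interaction missed the threshold (adjusted p = 0.161). Of 12 gonad sex genes tested, 1, wnt4b, rose in KO averaged over crosses and 0 fell, beside 8.19% and 4.04% of all genes, with a median log2 fold change of 0.38. The level of wnt4b was near the floor of detection, at 0.396 CPM in maternal-cross KO and 0.193 CPM in maternal-cross HET libraries. It averaged 0.534 CPM in paternal-cross KO and 0.157 CPM in paternal-cross HET libraries. Within crosses, 0 of the 12 were called in the maternal cross, beside 0.198% of all genes. In the paternal cross 6 rose and 2 fell, where 23.2% of all genes were called in either direction.

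Of 11 Hedgehog genes tested, 5 rose in KO averaged over crosses and 0 fell, beside 8.19% and 4.04% of all genes. The 5 were the transcription factors GLI1 and GLI3, the signal transducer SMO and the ligand co-receptors BOC and CDON. Their log2 fold changes ran from 0.19 for BOC to 0.67 for CDON, and the median of the list was 0.37. SUFU, the zebrafish target of miR-214 known from embryos, had -0.10 with SE 0.06 averaged over crosses on the log2 scale (adjusted p = 0.255 by edgeR). In the maternal cross SUFU had 0.07 (adjusted p = 0.893), and in the paternal cross it fell by 0.28 on the log2 scale with SE 0.09 (adjusted p = 0.0343), and the interaction missed the threshold (adjusted p = 0.183). For the whole list, 0 of 11 were called in the maternal cross, where 0.198% of all genes were. Of the 11, 5 rose and 2 fell (SUFU and KIF7) in the paternal cross, where 23.2% of all genes were called in either direction. Averaged over crosses, 2 of 5 leukocyte markers rose, ptprc and cd74a, beside 8.19% of all genes. In the maternal cross 0 of the 5 were called, beside 0.198% of all genes. In the paternal cross 4 of the 5 rose, beside 23.2% of all genes called in either direction. The 5 summed to 251 to 736 CPM in KO libraries and 159 to 545 CPM in HET libraries. The part of leukocytes in the KO-higher genes was not tested.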

How the data were processed

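The authors deposited 1 table of whole-number read counts per Ensembl gene for 16 polyA RNA libraries, not normalized; all 16 columns were matched by title. Per the submitters' processing notes, STAR 2.4.1d, featureCounts 1.4.6, DESeq2 and the genome build danRer10 were used, with no role or order given. The annotation and the use of strand are not given in the sources used here, so overlapping genes and near-identical copies are uncertain, and the members named here are subject to that. The labels call the 4 libraries of a group biological replicates.

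CPM was computed from these counts. The tool was edgeR 4.0.16 under R 4.3.3, run as a quasi-likelihood test on all 16 libraries with 1 coefficient per group, after filterByExpr (minimum count 10) and TMM, with Benjamini-Hochberg adjustment over all genes tested. The SE is the log2 fold change over the square root of F. The floor of detection covers counting error only. The within-group chi-square per degree of freedom was 6.46 to 52.6 over 24 pairs, so no library was a repeat of another library of its group. Libraries of different groups were not compared in this way. The scripts were checked with simulated data. Symbols for 26121 of 31953 identifiers came from the name tables; order on chromosomes came from the RefSeq table (GRCz12tu), matched by symbol ignoring case.

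The members and gene lists were chosen with earlier results of these data known. The genes named are the 10 KO-higher and all 7 KO-lower genes with the largest gap, those called between crosses or in the interaction, those at the limit, those on the mir214a chromosome, dnm3a and gsdf; others named were chosen after their values were seen. Alternatives were other scalings, filters, windows and pseudocounts, DESeq2 1.42.0, the replicate block and leaving out each library.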

Additional observations from a re-analysis of the deposited data

Results flagged for a closer look

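Of 68 groups of 4 libraries tested for a library far from the others, 1 was set apart, where chance alone sets apart about 1 in 20. It was CCM2 in maternal-cross HET replicate 4, at 3.71 on the log2(CPM + 0.5) scale, or 12.6 CPM, against 14.4 to 14.6 CPM in the other maternal-cross HET libraries. This library lay on the HET side, away from the KO libraries, so it did not set the gap of CCM2.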

How the results depend on the processing

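Of the 60, 23 were chosen again on TMM-scaled CPM and 23 with DESeq2 size factors, where 17 and 16 genes with a gap above 0 were lower in KO in place of 7. Leaving out 1 library kept 12 to 57 of the 60 among those chosen, while 59 or 60 of them had a gap above 0. Over the range, the genes with a gap above 0 ran from 63 to 312. Members on the mir214a chromosome were 4 to 7 without 1 library and 0 with names matched in the same case only, an alternative added after seeing the data. In the maternal cross, the 8 members called became 18 with the DESeq2 Wald test, 0 in a fit of the maternal cross alone and 5 with the replicate block, and 5 to 14 without 1 library. Averaged over crosses, 29 to 48 were called without 1 library (29 without paternal-cross HET replicate 3, 30 without maternal-cross HET replicate 4 or maternal-cross KO replicate 4, 31 without paternal-cross KO replicate 4), and in the paternal cross 16 to 31 (16 without paternal-cross HET replicate 3 or paternal-cross KO replicate 4).

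The interaction gave 1 member with DESeq2 and 0 to 0 without 1 library; the comparison of crosses gave 1 with the replicate block, where nfil3-5 had an adjusted p of 0.0683, and 0 to 3 without 1 library. Over all genes, calls became 4389 with DESeq2 and 857 with the replicate block in place of 2653 averaged over crosses. They became 208, 21 and, in a fit of that cross alone, 4 in place of 43 in the maternal cross. In the interaction DESeq2, no filter, the replicate block and upper-quartile scaling gave 637, 70, 13 and 19 in place of 41, and between crosses DESeq2 and the block gave 1989 and 741 in place of 1250. Without 1 library these counts ran from 538 to 6092 averaged over crosses, 19 to 131 in the maternal cross, 1026 to 6084 in the paternal cross, 14 to 181 in the interaction and 619 to 1564 between crosses.

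Of genes chosen in the maternal cross, the share that did not overlap in the paternal cross, 16.7%, was 10% with 30 genes chosen and 10 to 31.7% without 1 library; the share called was 10 to 35.0%. Of genes chosen in the paternal cross, the share without overlap in the maternal cross, 5.00%, was 2.50% with 120 genes and 3.33 to 13.3% without 1 library. The share called there, 3.33%, was 6.67% with 30 genes, 1.67% with 120 genes and 3.33 to 6.67% without 1 library. Smaller or larger choices and fits of fewer libraries change these counts by their construction; the cause of the other changes was not tested. Replicate numbers share no stated source: the correlation of deviations of KO and HET libraries of equal number was -0.40 to -0.13 in the maternal cross and -0.07 to 0.32 in the paternal cross. Depth gave every member at least 12 counts in each library.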
